A study of Mus musculus with 12 samples.

Results

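Agr2, Angptl1, F13a1, Dpep1, Clec3b, Ackr4, Sncg, Apod, Megf6 and Cyb561 are 10 of the 27964 genes that had a read in a series of 12 libraries from a mouse bone cell line. They were chosen by their measured levels, as among the highest on differentiation of control cells relative to undifferentiated ones, or among the lowest with the matrix protein BIGH3 in differentiated cells relative to control. All 10 passed the filter on low counts that left 14711 genes for testing. RNA was sequenced from cells labelled MLO-Y4, an osteocyte-like line with wild-type genotype, grown on collagen I at 0.15 mg/mL. The 4 groups of 3 libraries were differentiated BIGH3, differentiated control, undifferentiated BIGH3 and undifferentiated control. BIGH3 (the product of Tgfbi) was given as recombinant human protein. Its dose and time, and what the controls received, are not given in the sources used here. Differentiated cells had serum at 10%, ascorbic acid at 50 µg/mL and β-glycerophosphate at 4 mM. The medium of undifferentiated cells is not given, so differentiation and a direct effect of the medium cannot be told apart. The names of the data begin with MC3 rather than with the labelled line, whose identity was not tested. The labels do not say whether libraries of a group were separate cultures, so p-values measure only the spread between these libraries.

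Osteoblasts lay down collagen matrix, and some of them become osteocytes, the cells embedded in bone. Ascorbic acid is the cofactor of the enzymes that hydroxylate collagen, and β-glycerophosphate supplies phosphate for mineral, which is why both are used to drive bone cells towards a later state. BIGH3 is a secreted protein induced by TGF-β that binds collagens and integrins and is known to inhibit mineralisation by osteoblasts.

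The 10 genes are scattered over 9 chromosomes and code for proteins of unrelated families, and their promoters had no common composition. RefSeq (GRCm38.p6) gave 9 promoters for 8 of them, each running from 250 bases before to 50 bases after a start site, with F13a1 represented at 2 start sites and Clec3b and Cyb561 without an entry. The median GC content was 52.7%, the same as over all 32851 promoters of that table. The extremes were Apod, with 37.3% GC and 4 CpG dinucleotides, and Megf6, with 67.0% GC and 20 CpG dinucleotides. Of all promoters, 6.19% had a lower GC content than that of Apod and 85.6% a lower one than that of Megf6. They are shown as the extremes of composition, beside Agr2, which had 47.3% GC and 7 CpG dinucleotides and the highest fold change on differentiation of control cells. The sequences run 5′ to 3′ on the gene's strand, and capitals mark CpG dinucleotides. The Agr2 promoter is at chr12:35992675-35992974 on the plus strand, the Apod promoter at chr16:31314759-31315058 on the minus strand and the Megf6 promoter at chr4:154170463-154170762 on the plus strand.
Agr2: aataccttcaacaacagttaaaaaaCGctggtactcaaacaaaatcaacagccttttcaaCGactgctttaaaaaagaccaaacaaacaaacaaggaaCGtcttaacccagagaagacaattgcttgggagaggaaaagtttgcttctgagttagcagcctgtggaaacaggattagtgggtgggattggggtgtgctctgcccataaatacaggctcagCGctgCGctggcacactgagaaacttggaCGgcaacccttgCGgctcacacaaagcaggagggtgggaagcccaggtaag
Apod: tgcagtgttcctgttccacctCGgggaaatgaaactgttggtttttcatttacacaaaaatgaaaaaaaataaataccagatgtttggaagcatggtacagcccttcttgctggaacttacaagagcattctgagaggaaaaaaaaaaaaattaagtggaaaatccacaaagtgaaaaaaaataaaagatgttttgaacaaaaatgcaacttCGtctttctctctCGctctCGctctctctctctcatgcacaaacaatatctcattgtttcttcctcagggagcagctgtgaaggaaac
Megf6: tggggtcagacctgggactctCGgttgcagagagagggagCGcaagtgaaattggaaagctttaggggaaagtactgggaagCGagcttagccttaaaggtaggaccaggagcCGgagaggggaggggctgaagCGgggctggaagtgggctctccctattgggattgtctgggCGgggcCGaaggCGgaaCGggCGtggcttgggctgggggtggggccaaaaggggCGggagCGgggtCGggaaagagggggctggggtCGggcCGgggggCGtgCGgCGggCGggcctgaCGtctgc

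Exact letter matches were sought on both strands of the 9 promoters for 9 motifs. A TATA box (TATAAA) lay in the Ackr4 promoter, at position -185 from the start site, and 13.6% of all promoters held these letters. The Dpep1 promoter held a RUNX motif (TGTGGT, read as ACCACA) at -182 and a TEAD motif (GGAATG, read as CATTCC) at -67, and 16.8% and 14.7% of all promoters held them. No member promoter held the letters of AP-1 (TGANTCA, 7.81% of all promoters), FOXO (GTAAACA, 3.65%), C/EBP (TTGCNNAA, 10.8%), STAT (TTCNNNGAA, 8.3%), NF-kB (0.411%) or the glucocorticoid receptor (0.475%). These matches describe these windows and the letters sought, and the TATA match overlapped none of the other motifs.

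Depth was 19014492 to 27612155 estimated reads per library. Between differentiated and undifferentiated control cells 57.7% of genes were called at an adjusted p below 0.05 by edgeR's quasi-likelihood test (29.1% higher, 28.6% lower). Between differentiated BIGH3 and differentiated control cells 45.5% were called (22.6% higher, 22.9% lower). On the log2(TPM + 1) scale the median of all genes between differentiated and undifferentiated cells shifted to -0.25 in control cells and -0.16 in BIGH3 cells, and the share of higher genes among those called was 19.9% and 26.9%, against 50.5% and 51.1% on counts. Of the osteocyte markers, Sost was at 0 in all groups except differentiated controls (0.106 TPM) and Fgf23 was at 0 in every group. Dmp1 averaged 38.9 TPM in differentiated BIGH3, 16.6 in differentiated control, 31.5 in undifferentiated BIGH3 and 29.7 in undifferentiated control cells, Phex 6.07, 20.7, 2.19 and 2.42 TPM and Mepe 0.0234, 0.485, 0.0367 and 0.0544 TPM in the same order. The 9 osteocyte markers summed to 272 to 279, 207 to 216, 269.5 to 271 and 255 to 281 TPM in these groups. This sum came mostly from Pdpn, with 210.4, 139.7, 164.8 and 165.9 TPM on average in the same order. Irx5 gave 20.9, 33.8, 71.7 and 70.6 TPM. Liver transcripts were most abundant in undifferentiated control 2, differentiated BIGH3 3, differentiated control 2 and undifferentiated BIGH3 1, with Afp, encoding a fetal plasma protein, at 47.0, 17.4, 15.8 and 8.25 TPM, against 0.879 to 2.39 TPM in the other 8 libraries. Without these 4 libraries no log2 fold change of the 10 genes changed sign on differentiation or with BIGH3 in differentiated cells, and 1 moved by more than 1.5-fold, that of Agr2 in control cells.

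The rule used the levels in differentiated and undifferentiated control cells and in differentiated BIGH3 cells, so the values among these groups are given as a description without a test. Levels are in CPM, the reads of a gene scaled to the TMM-adjusted size of the library, and fold changes are log2 values with standard errors from edgeR. In a culture, fewer cells that express a gene and less of its RNA per cell cannot be told apart. All 10 genes were highest in differentiated control cells, without overlap with any other group, an order that their choice favours. Gaps between a single pair of groups were common among genes of at least 2 log2 CPM on average, predicted models left out. Beside the members, 10337 genes were at that level. With the members counted, 3303 were called higher on differentiation of control cells without overlap. In differentiated cells 2675 were called lower with BIGH3 without overlap. Gaps from every other group at once were not counted over all genes. The 10 genes differed in where the differentiated BIGH3 cells lay, from over 50% of the control level for F13a1 and Dpep1 to below the undifferentiated cells for Apod.

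**Figure D1:**
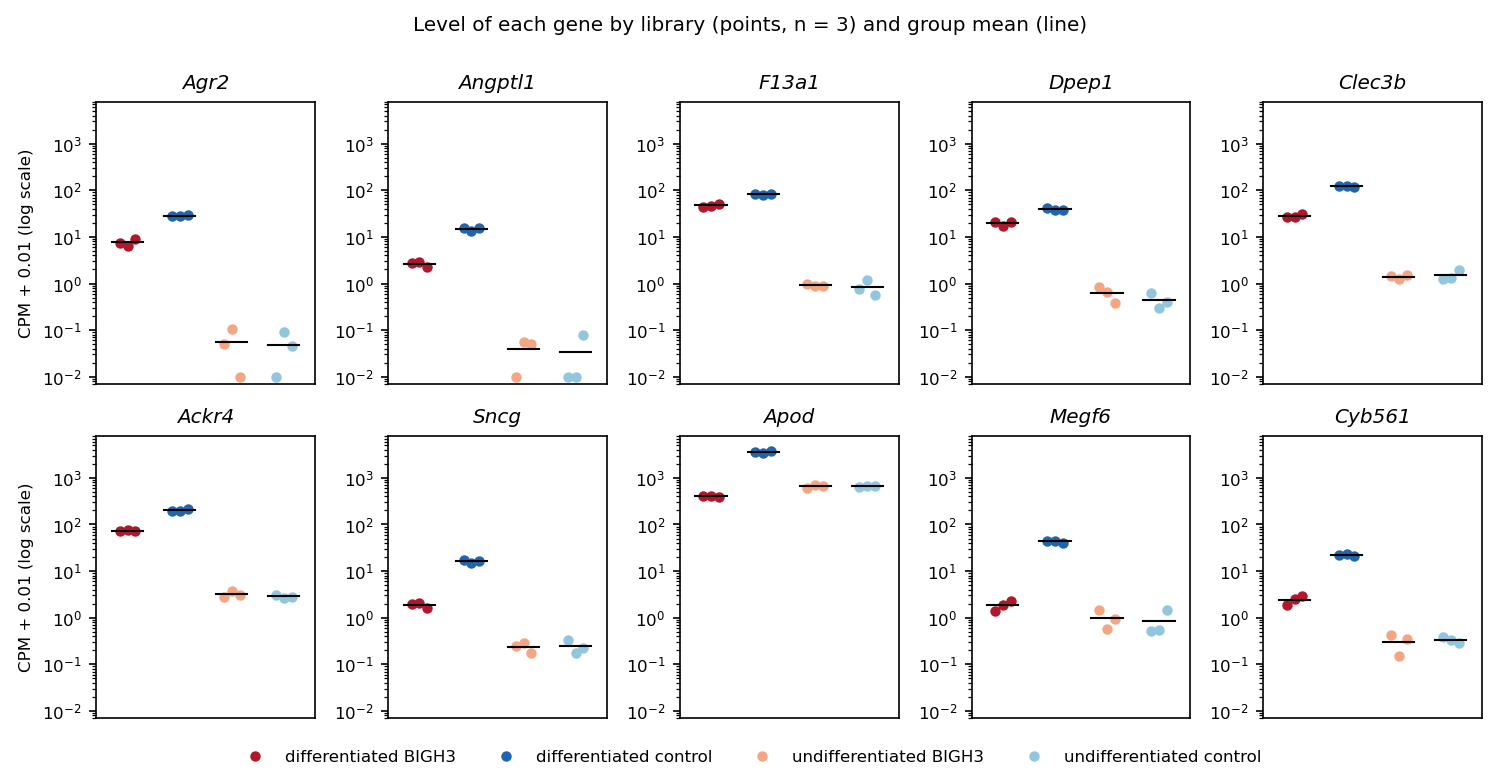
Level of each of the 10 genes in CPM + 0.01 on a log axis, by library (points, 3 per group) with the group mean as a line, for differentiated BIGH3, differentiated control, undifferentiated BIGH3 and undifferentiated control cells. Differentiated control libraries are highest in every panel, and the differentiated BIGH3 libraries of Apod, near 402 CPM, lie below the undifferentiated ones, near 657 and 662 CPM.

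Among the secreted proteins, Apod codes for apolipoprotein D, a lipocalin that carries small lipids such as arachidonic acid. Apod (chromosome 16, 31296192 to 31314808, minus strand) had 400.1, 410.2 and 397 CPM in differentiated BIGH3, 3577, 3447 and 3782 CPM in differentiated control, 611, 688 and 672 CPM in undifferentiated BIGH3 and 652, 663 and 670.2 CPM in undifferentiated control libraries. It was high in undifferentiated cells too, and its differentiated BIGH3 libraries lay below every other library. It was the most abundant of the 10 per transcript length in every group, at 483 ± 14.7, 4223 ± 184, 885 ± 8.6 and 959 ± 23.1 TPM in the same order of groups (SD, n = 3). Its log2 fold change was -3.16 ± 0.05 with BIGH3 in differentiated cells, and with differentiation -0.71 ± 0.05 in BIGH3 cells and 2.44 ± 0.05 in control cells. Ranked among called genes of at least 2 log2 CPM on average whose groups did not overlap, Apod was 9th of 2675 lower genes with BIGH3 but 77th of 3303 higher genes on differentiation of control cells.

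Angptl1 codes for an angiopoietin-like glycoprotein with a fibrinogen-like domain. Angptl1 (chromosome 1, 156838562 to 156861078, plus strand) had 2.74, 2.89 and 2.24 CPM in differentiated BIGH3 and 15.6, 13.4 and 15.5 CPM in differentiated control libraries. Only 2 reads over 3 libraries were assigned to it in undifferentiated BIGH3 cells and 2 in undifferentiated control cells, in which 2 libraries had none. The ratio of rates on differentiation was 92.4 in BIGH3 cells (95% counting interval 25.1 to 769.5) and 554 in control cells (153 to 4582), where the intervals cover counting error only. Its fitted log2 value in control cells was 8.84 and became 11.35 without undifferentiated control 3, the only library of that group with a read. With BIGH3 its log2 fold change in differentiated cells was -2.50 ± 0.20. The opposite-strand gene Ralgps2 shares no exonic base with Angptl1, while the predicted gene Gm37802 shares 465 of 2841 exonic bases and had 1 to 8 reads per group.

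Clec3b codes for tetranectin, a plasminogen-binding C-type lectin found in plasma and in mineralising bone. Clec3b (chromosome 9, 123150946 to 123157432, plus strand) had 26.3, 26.9 and 30.5 CPM in differentiated BIGH3, 124, 127 and 119.8 CPM in differentiated control, 1.46, 1.22 and 1.53 CPM in undifferentiated BIGH3 and 1.22, 1.31 and 1.95 CPM in undifferentiated control libraries. The 2 differentiated groups stood apart from each other and from the undifferentiated libraries, which overlapped. It was second to Apod per transcript length in all groups, at 47.0 TPM in differentiated BIGH3 and 198 TPM in differentiated control cells. Its log2 fold change with BIGH3 was -2.15 ± 0.08. Clec3b is known in adventitial fibroblasts. Of 8 markers of these cells none was at 0, but several were near it in every group. Pi16 averaged at most 0.588 TPM in any group, Dpt 0.322, Col14a1 0.126 and Dpp4 0.112 TPM. The summed level of the 8 markers was 549.8 to 557 TPM in differentiated BIGH3 and 616 to 659 TPM in differentiated control libraries. It was 748 to 821 TPM in undifferentiated BIGH3 and 769 to 836 TPM in undifferentiated control libraries. This sum came mostly from Ly6a and Cd34, and was lowest where Clec3b was intermediate. The part of these markers in the level of Clec3b was not tested.

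F13a1 codes for the catalytic A subunit of coagulation factor XIII, a transglutaminase that cross-links fibrin and is also made by osteoblasts. F13a1 (chromosome 13, 36867178 to 37050244, minus strand) had 43.8, 47.1 and 51.9 CPM in differentiated BIGH3, 83.0, 81.0 and 83.2 CPM in differentiated control, 0.972, 0.889 and 0.870 CPM in undifferentiated BIGH3 and 0.750, 1.18 and 0.558 CPM in undifferentiated control libraries. Of the 10 genes it had the smallest log2 difference with BIGH3, -0.79 ± 0.08, and its differentiated libraries still did not overlap. F13a1 is also a macrophage gene. Of 9 macrophage markers, Tyrobp was at 0 in every group and Ptprc averaged at most 0.214 TPM. The summed marker level was 41.6 to 48.4 TPM in differentiated BIGH3, 46.3 to 53.4 TPM in differentiated control, 28.2 to 32.2 TPM in undifferentiated BIGH3 and 32.0 to 35.0 TPM in undifferentiated control libraries, of which Lyz2 gave 40.8, 48.9, 29.3 and 32.1 TPM on average. The part of this in the level of F13a1 was not tested.

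Agr2 codes for an endoplasmic reticulum protein of the disulfide isomerase family that is needed for mucin folding in goblet cells. Agr2 (chromosome 12, 35992907 to 36004087, plus strand) had 7.52, 6.52 and 9.12 CPM in differentiated BIGH3 and 27.4, 28.6 and 29.7 CPM in differentiated control libraries. In undifferentiated cells it had 3 reads over the BIGH3 libraries and 3 over the control libraries, and 1 library of each group had none. The ratio of rates on differentiation was 179.9 in BIGH3 cells (61.2 to 876) and 708 in control cells (242 to 3437). Its fitted log2 value in control cells was 9.28 and became 10.13 without undifferentiated control 2 and also without the 4 libraries richest in liver transcripts. With BIGH3 its log2 fold change in differentiated cells was -1.89 ± 0.14. Of 10 epithelial markers, Cldn4, Cldn7 and Tff3 were at 0 in every group, and the summed level was 1.89 to 7.39 TPM in differentiated BIGH3, 1.74 to 6.12 TPM in differentiated control, 3.57 to 5.94 TPM in undifferentiated BIGH3 and 3.48 to 14.7 TPM in undifferentiated control libraries. These ranges overlapped between all groups. Their part in the level of Agr2 was not tested.

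Among the membrane proteins, Ackr4 codes for an atypical chemokine receptor that takes up CCL19, CCL21 and CCL25 without G protein signalling. Ackr4 (chromosome 9, 104084157 to 104126933, minus strand) had 72.5, 77.1 and 71.0 CPM in differentiated BIGH3, 195, 191 and 219 CPM in differentiated control, 2.71, 3.70 and 3.07 CPM in undifferentiated BIGH3 and 3.09, 2.66 and 2.83 CPM in undifferentiated control libraries. Both differentiated groups were far above the undifferentiated libraries and apart from each other, with a log2 fold change of -1.46 ± 0.06 with BIGH3. Of its 5380 exonic bases, 479 are shared with Acad11 on the opposite strand, and reads of overlapping genes may be divided wrongly because the strand of the libraries is not given. Acad11 had 2493 reads in differentiated BIGH3, 2733 in differentiated control, 1996 in undifferentiated BIGH3 and 2091 in undifferentiated control cells. Ackr4 is known in lymphatic endothelium, and of 8 endothelial markers the summed level was 1.63 to 2.13, 2.09 to 2.25, 2.84 to 3.10 and 2.63 to 3.04 TPM in the same order of groups, with Kdr at 0 in both BIGH3 groups. Their part in the level of Ackr4 was not tested.

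Dpep1 codes for a membrane-anchored dipeptidase that cleaves cysteinylglycine and leukotriene D4 and is abundant in the kidney. Dpep1 (chromosome 8, 123186242 to 123201812, plus strand) had 21.3, 17.4 and 20.99 CPM in differentiated BIGH3, 41.3, 37.5 and 38.1 CPM in differentiated control, 0.851, 0.655 and 0.373 CPM in undifferentiated BIGH3 and 0.610, 0.286 and 0.384 CPM in undifferentiated control libraries. Next to F13a1 it had the smallest log2 difference with BIGH3, -0.97 ± 0.11. Of 6 kidney tubule markers, Slc34a1, Umod and Kap were at 0 in every group. The summed level was 0.594 to 0.814 TPM in differentiated BIGH3 and 0.615 to 0.780 TPM in differentiated control libraries. It was 0.599 to 0.741 TPM in undifferentiated BIGH3 and 0.636 to 0.896 TPM in undifferentiated control libraries. Single markers differed in opposite directions. Slc12a1 averaged 0.334, 0.345, 0.0433 and 0.0493 TPM in the same order of groups, and Cubn 0.380, 0.352, 0.642 and 0.712 TPM. The part of these markers in the level of Dpep1 was not tested.

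Cyb561 codes for a transmembrane cytochrome that passes electrons from cytosolic ascorbate into secretory vesicles. Cyb561 (chromosome 11, 105933702 to 105953336, minus strand) had 1.82, 2.51 and 2.91 CPM in differentiated BIGH3, 22.4, 23.5 and 21.004 CPM in differentiated control, 0.405, 0.140 and 0.332 CPM in undifferentiated BIGH3 and 0.375, 0.327 and 0.279 CPM in undifferentiated control libraries. Its log2 fold change with BIGH3 was -3.22 ± 0.17, so that differentiated BIGH3 cells had 10.8% of the control level. The undifferentiated levels rested on 3 to 10 reads per library.

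Megf6 codes for a large protein of repeated EGF-like domains. Megf6 (chromosome 4, 154170730 to 154275713, plus strand) had 1.41, 1.82 and 2.24 CPM in differentiated BIGH3, 45.3, 44.7 and 40.3 CPM in differentiated control, 1.42, 0.562 and 0.912 CPM in undifferentiated BIGH3 and 0.516, 0.531 and 1.43 CPM in undifferentiated control libraries. The differentiated BIGH3 libraries overlapped both undifferentiated groups, and Megf6 had the lowest level of the 10 relative to differentiated control, 4.20%, with a log2 fold change of -4.59 ± 0.27. Its log2 value on differentiation of control cells was 5.64 ± 0.29, and 6.36 without undifferentiated control 3.

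Sncg codes for gamma-synuclein, a small cytosolic protein of neurons and adipocytes. Sncg (chromosome 14, 34370274 to 34374789, minus strand) had 2.01, 2.03 and 1.62 CPM in differentiated BIGH3, 17.3, 15.1 and 16.4 CPM in differentiated control, 0.243, 0.281 and 0.166 CPM in undifferentiated BIGH3 and 0.328, 0.163 and 0.209 CPM in undifferentiated control libraries. The differentiated BIGH3 libraries lay between the other differentiated group and the undifferentiated libraries, with a log2 fold change of -3.10 ± 0.17 with BIGH3. Of 8 adipocyte markers, Cidec was at 0 in both differentiated groups. Their summed level was 4.48 to 4.62 TPM in differentiated BIGH3 and 1.67 to 3.34 TPM in differentiated control libraries. It was 0.400 to 0.851 TPM in undifferentiated BIGH3 and 0.739 to 1.25 TPM in undifferentiated control libraries. Of this sum Fabp4 gave 3.453, 1.105, 0.332 and 0.646 TPM on average in the same order of groups. Lep went the other way between the differentiated groups, at 0.0388, 0.954, 0.0132 and 0.0123 TPM in that order. The part of these markers in the level of Sncg was not tested.

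To set the 10 genes on a common scale, the difference between differentiated and undifferentiated BIGH3 cells was expressed as a percentage of the difference between differentiated and undifferentiated control cells, in CPM. The share was 57.2% ± 5.0 for F13a1, 50.0% ± 5.6 for Dpep1, 35.4% ± 1.6 for Ackr4, 26.9% ± 4.6 for Agr2 and 21.8% ± 1.9 for Clec3b (SD over the 3 differentiated BIGH3 libraries, with the other group means held fixed). It was 17.5% ± 2.3 for Angptl1, 10.3% ± 1.4 for Sncg, 9.66% ± 2.5 for Cyb561, 2.02% ± 0.97 for Megf6 and -8.65% ± 0.24 for Apod. F13a1 and Dpep1 kept the largest shares, and only Apod was below 0. Within the set, the profiles over 12 libraries were most alike for Clec3b and Ackr4 (Pearson r of log2 CPM 0.992) and least alike for F13a1 and Apod (0.443), where the libraries share the 4 groups.

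**Figure D2:**
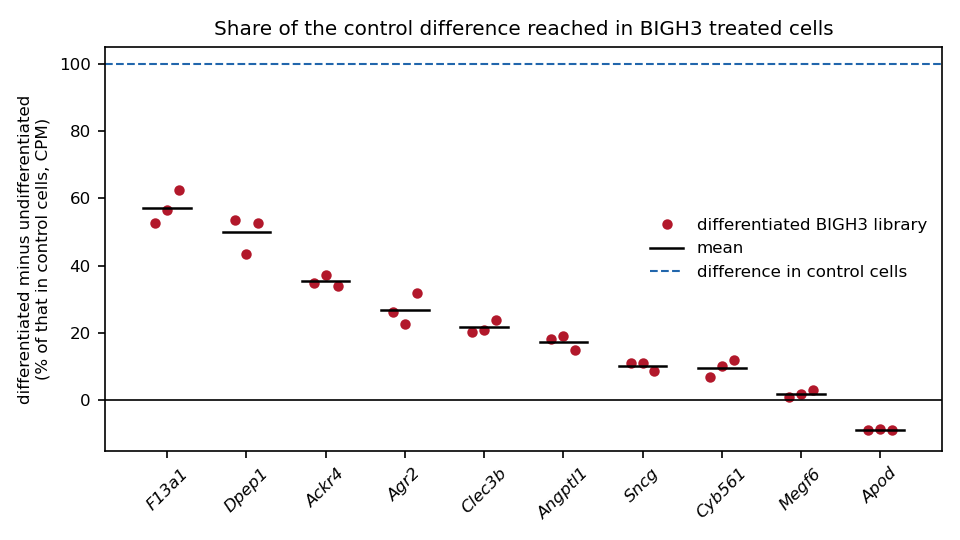
Difference in CPM between each differentiated BIGH3 library (points) and the undifferentiated BIGH3 mean, as a percentage of the difference between the control group means, with the mean of the 3 libraries as a line. F13a1 reaches 57.2% of the control difference, Megf6 2.02%, and Apod lies below 0.

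The comparison of undifferentiated BIGH3 with undifferentiated control cells asked whether the protein acts on the 10 genes without the differentiation medium. The rule did not use the undifferentiated BIGH3 libraries, although it used these controls, so the test is not free of that choice. By edgeR's quasi-likelihood test none of the 10 genes was called, where 0.0204% of all genes (3 of 14711) were, 0.0068% higher and 0.0136% lower. The log2 fold changes ran from -0.11 for Clec3b to 0.58 for Dpep1, with adjusted p of 0.999932 or higher, none had an unadjusted p below 0.05, and DESeq2 called none. The most precise of these values were those of Apod, -0.01 ± 0.05, and Ackr4, 0.14 ± 0.14. Those of Agr2 and Angptl1 rested on 2 or 3 reads a group, and a difference was not detectable at this depth. Other genes also had few reads. Sncg had 16 in undifferentiated BIGH3 and 17 in undifferentiated control cells, Cyb561 21 and 24, Dpep1 44 and 31 and Megf6 69 and 65. The standard errors of these 4 genes were 0.32 to 0.43, so small differences could go unseen.

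Differentiated were compared with undifferentiated BIGH3 cells to ask how far the genes still differed in the presence of the protein. In this comparison 28.9% of all genes were called higher and 27.7% lower (56.6% in all). The members were chosen in part by their levels in differentiated BIGH3 cells, so their values are a description without a test. The log2 fold change was 7.32 ± 0.32 for Agr2, 5.70 ± 0.13 for F13a1, 4.98 ± 0.17 for Dpep1, 4.55 ± 0.09 for Ackr4 and 4.30 ± 0.12 for Clec3b. That of Agr2 became 8.21 without undifferentiated BIGH3 2, which held 2 of the 3 reads. Those of the others were 6.27 for Angptl1, 3.02 for Sncg, 2.98 for Cyb561, 0.88 for Megf6 and -0.71 for Apod. The same log2 difference in control cells was 6.64 for F13a1, 6.53 for Dpep1, 6.33 for Clec3b, 6.14 for Ackr4, 6.12 for Sncg, 6.08 for Cyb561, 5.64 for Megf6 and 2.44 for Apod. The value in BIGH3 cells was lower than that in control cells for each of these 8 genes, an order that their choice favours.

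**Figure D3:**
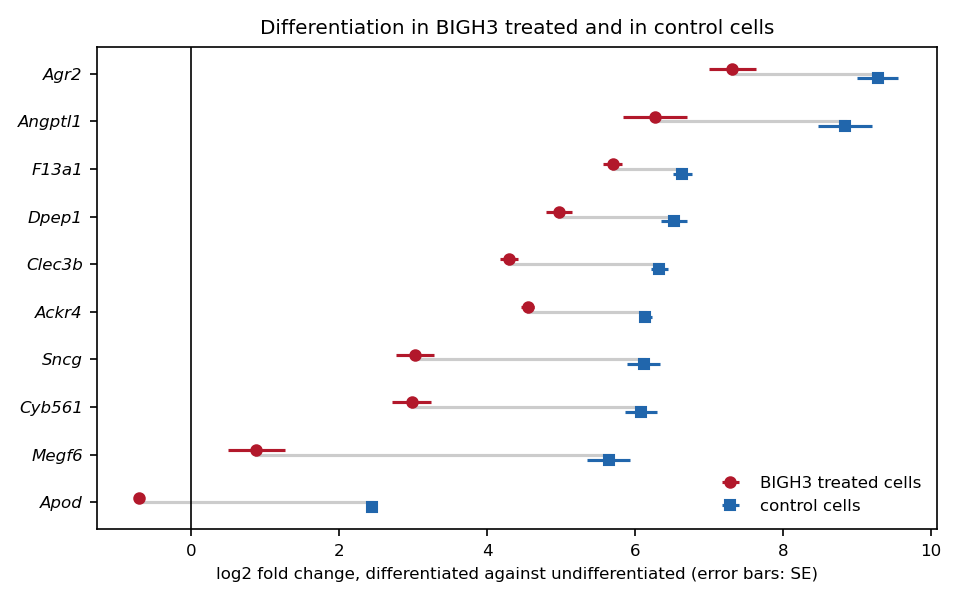
Log2 fold change between differentiated and undifferentiated cells for each gene in BIGH3 treated cells (circles) and control cells (squares), with standard errors as bars. The values of Agr2 and Angptl1 rest on 2 or 3 reads in each undifferentiated group, and Apod is below 0 in BIGH3 treated cells (-0.71) and above 0 in control cells (2.44).

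Transcript shares were examined because the files give reads per transcript, with reads shared between transcripts divided by the authors' model. Clec3b and Sncg have a single transcript in the files, and Agr2, F13a1, Dpep1 and Cyb561 drew 99.4%, 98.1%, 94.6% and 92.9% of their reads from a single transcript. Ackr4 drew on 3. The share of Ackr4-203 was 34.1, 33.3 and 34.6% in differentiated BIGH3 libraries and 24.8, 24.7 and 19.4% in differentiated control libraries, without overlap. Ackr4-204 had 38.8, 38.7 and 32.3% in differentiated BIGH3 and 45.6, 42.6 and 42.6% in differentiated control libraries, the opposite order. Apod also drew on 3. Its protein-coding transcript Apod-202 had 27.5% ± 2.3 of the reads in differentiated BIGH3, 32.8% ± 0.39 in differentiated control, 22.6% ± 0.62 in undifferentiated BIGH3 and 23.5% ± 0.55 in undifferentiated control cells (SD, n = 3). Apod-202 thus had its highest share where the gene was highest, but its next highest in differentiated BIGH3 cells, where the gene was lowest. Apod-201, annotated as a retained intron, had 41.8% ± 2.8, 38.2% ± 4.7, 43.7% ± 4.8 and 46.9% ± 1.7 in the same order, with overlap between the differentiated groups.

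Other genes had too few reads in BIGH3 cells for stable shares. The short transcript Angptl1-202, with 2 exons against 5 in Angptl1-201, had 0, 27.3 and 0% in differentiated BIGH3 libraries, which held 40 to 60 reads, and 22.4, 29.2 and 25.4% in differentiated control libraries. Cyb561-204 had 0% in all 3 differentiated BIGH3 libraries, of 40 to 52 reads, and 5.75, 4.95 and 5.89% in differentiated control libraries. The full-length Megf6-201 had 56.0% ± 2.7 in differentiated control libraries but 0, 0 and 92.7% in differentiated BIGH3 libraries, which held 31 to 40 reads, so these shares are not interpretable there.

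**Figure D4:**
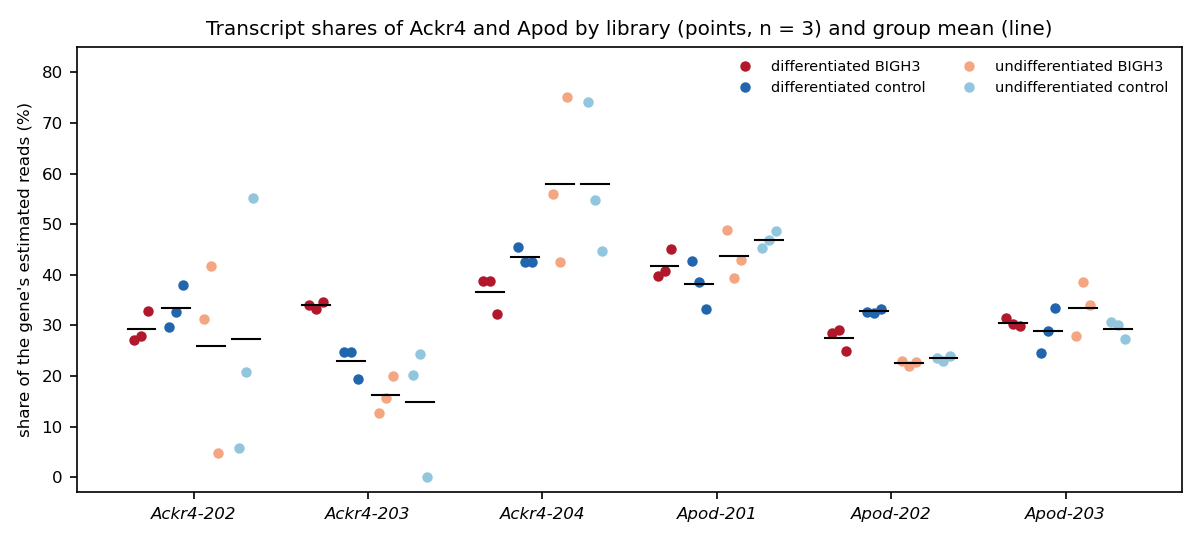
Share of a gene's estimated reads assigned to each main transcript of Ackr4 and Apod, in percent, by library (points, 3 per group) with the group mean as a line. Ackr4-203 is higher in differentiated BIGH3 (33.3 to 34.6%) than in differentiated control libraries (19.4 to 24.8%), and Apod-202 is highest in differentiated control libraries.

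Of 72 relatives of the 10 genes 48 were tested by edgeR's quasi-likelihood test. In differentiated BIGH3 against differentiated control cells 17 rose (35.4%) and 14 fell (29.2%), where 22.6% of all genes were called higher and 22.9% lower. On differentiation of control cells 25 rose (52.1%) and 6 fell (12.5%), where 29.1% of all genes were called higher and 28.6% lower. On differentiation of BIGH3 cells 30 rose (62.5%) and 8 fell (16.7%), where 28.9% of all genes were called higher and 27.7% lower. The medians of the 48 on differentiation were 0.32 in control cells and 0.55 in BIGH3 cells on the log2 scale, and those of all genes tested -0.01 and 0.01. On the log2(TPM + 1) scale, of the 26 relatives named by rule 5 turned direction on differentiation of control cells and 4 in BIGH3 cells. The nearest relative of Agr2, Agr3, had 1 read over 12 libraries.

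The family counts with BIGH3 in differentiated cells that follow stand beside these shares of 22.6% higher and 22.9% lower over all genes, and rest on 2 to 8 genes each. Among the lipocalins, 2 of 5 tested beside Apod rose with BIGH3. Lcn2, which binds bacterial siderophores, averaged 318 CPM in differentiated BIGH3 and 1.11 CPM in differentiated control cells, a log2 fold change of 8.13 ± 0.22 (edgeR adjusted p = 1.35e-09). Among the angiopoietins and angiopoietin-like proteins, 6 of 7 tested rose on differentiation of control cells, where 29.1% of all genes did, and with BIGH3 3 rose and 1 fell. Angpt1, a ligand of the Tie2 receptor, averaged 60.4 CPM in differentiated BIGH3 and 39.9 CPM in differentiated control cells, a rise of 0.60 ± 0.06 on the log2 scale (edgeR adjusted p = 1.18e-07). Angptl2 averaged 104 CPM in differentiated BIGH3 and 139.8 CPM in differentiated control cells and fell by 0.43 on the log2 scale (edgeR adjusted p = 5.82e-07).

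Of the transglutaminases, only Tgm2 and Tgm5 passed the filter beside F13a1. Tgm2, a cross-linking enzyme of many tissues, averaged 691 CPM in differentiated BIGH3 and 477 CPM in differentiated control cells and rose by 0.53 ± 0.05 (edgeR adjusted p = 1.33e-08). Tgm5 fell by 2.78 on the log2 scale, but lost that call when either differentiated BIGH3 1 or differentiated control 3 was left out. Of the secreted C-type lectins, 3 of 4 tested fell and 1 rose with BIGH3. Clec11a, a bone growth factor also called osteolectin, averaged 289 CPM in differentiated BIGH3 and 355 CPM in differentiated control cells, and Colec10 averaged 10.7 and 20.8 CPM in these groups. Colec12 rose by 0.20 ± 0.05 (edgeR adjusted p = 0.00195).

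Of the chemokines that Ackr4 takes up, Ccl21a had no read, Ccl19 had 11 reads over 12 libraries and only Ccl25 was tested. Ccl25 averaged 7.84 CPM in differentiated BIGH3 and 5.78 CPM in differentiated control cells (log2 fold change 0.44 ± 0.14, edgeR adjusted p = 0.0126), a call lost without differentiated BIGH3 1 or differentiated control 1. Of the 8 tested disulfide isomerases 4 rose and 1 fell with BIGH3. The one that fell was Txndc5, at 343 CPM in differentiated BIGH3 and 542 CPM in differentiated control cells. Of the 6 tested enzymes related to Dpep1 1 rose and 3 fell. Ggt7, a gamma-glutamyltransferase relative, rose by 1.34 ± 0.12 (edgeR adjusted p = 1.18e-08). Of the 5 tested EGF-repeat proteins 1 rose and 3 fell, with Megf9 at 30.7 CPM in differentiated BIGH3 and 50.7 CPM in differentiated control cells. Of the 8 tested genes of cytochrome b561 and ascorbate handling 3 rose and 2 fell. Frrs1, a ferric reductase, averaged 102 CPM in differentiated BIGH3 and 67.6 CPM in differentiated control cells. Gsto1, which reduces dehydroascorbate, averaged 65.3 and 91.3 CPM in these groups.

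The genes most like the mean profile of the 10, over 12 libraries and 10337 candidate genes, were Akr1c14 (Pearson r of log2 CPM 0.998), Htra1 (0.997), Klhl33 (0.997), Mxra7 (0.996) and Fam69a (0.996). Akr1c14 averaged 28.8 CPM in differentiated BIGH3, 56.4 in differentiated control, 14.4 in undifferentiated BIGH3 and 13.7 in undifferentiated control cells. For single members the genes most alike included Lpin3 for Agr2, and the first 2 were Gusb and Fkbp14 for Angptl1, Ighm and Cyp4v3 for F13a1, Gramd3 and Slc43a2 for Dpep1 and Enpep and Sema3g for Clec3b. They were Igf1 and Abhd12 for Ackr4, Lamtor4 and Phex for Sncg, Papss2 and Anxa4 for Apod, Pygb and Fkbp5 for Megf6 and Nbl1 and Matn4 for Cyb561. These correlations, 0.990 or higher, were chosen as the highest of many and the libraries share the 4 groups. Phex, the phosphate-regulating endopeptidase of osteocytes, averaged 23.9 CPM in differentiated BIGH3, 83.8 in differentiated control, 7.75 in undifferentiated BIGH3 and 8.27 in undifferentiated control cells. Ighm, the immunoglobulin mu heavy chain locus, averaged 119, 194, 4.75 and 4.77 CPM in the same order, with Ptprc, the common leukocyte antigen, at 0.107, 0.126, 0.0742 and 0.214 TPM.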

How the data were processed

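RNA of 12 libraries was prepared with a KAPA kit, per the labels' protocols. Salmon, StringTie, cutadapt, FastQC and the mm10 build appear in the submitters' processing notes, without versions. Files as deposited give estimated counts (expected counts) and TPM per transcript, both by the authors, TPM being a share per effective transcript length with the same sum in each library. Of 147828 transcripts 137063 (92.72%) matched GENCODE M21 (GRCm38) by identifier, and the unmatched ones, with 1.279% to 3.665% of reads, were left out. Estimated counts were summed per gene and rounded.

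Genes were filtered with filterByExpr by group (14711 of the 27964 genes with a read were kept). Counts were scaled by TMM and fitted in edgeR 4.0.16 (quasi-likelihood, robust, R 4.3.3) with 1 term per group over all 12 libraries. Tests were two-sided with Benjamini-Hochberg adjustment over all genes tested, and a gene was called below 0.05. Standard errors were worked back from F as |log2 fold change| / √F. For groups of 1 to 3 reads an exact 95% interval accompanies the ratio of rates. Depth was 19014492 to 27612155 reads and the biological coefficient of variation 8.18%. Counts were simulated for differentiated BIGH3 against differentiated control, with 100 genes changed at each fold, drawn from those averaging over 1 CPM. Of these, 76% of genes changed by 1.5-fold and 98% of those changed by 4-fold were recovered, with 11 false calls among 14711 genes. These shares do not describe the members' test in undifferentiated cells, where most members were below 1 CPM.

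The members, the lists of relatives and markers and the tests were chosen with earlier results of these data known. Members were tested only between undifferentiated BIGH3 and undifferentiated control cells, the comparison without differentiated libraries. It still uses the undifferentiated controls, whose levels helped to choose the members, so its p-values are not free of that choice. A planned test of 5 members between differentiated and undifferentiated BIGH3 cells was dropped, since levels in differentiated BIGH3 cells chose members too. Named were the 10 members, up to 3 relatives per list of highest mean TPM, and the genes of highest correlation (5 for the set, 2 per member). Genes given beside these (Agr3, Ccl21a, Ccl19, overlapping genes and markers) were named after their values were seen. Not every gene the rule selects is reported here. Alternatives were DESeq2 1.42.0, RLE size factors, no filter, a replicate block, limma 3.58.1 on log2(TPM + 1), effective length offsets, compared groups only, and leaving out libraries.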

Additional observations from a re-analysis of the deposited data

Results flagged for a closer look

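The difference between the BIGH3 effect in differentiated and in undifferentiated cells was tested for the 26 relatives named by rule, as an interaction term in edgeR's quasi-likelihood test. It was called for 17 of them, where 32.2% of all 14711 genes were called. Each value below is the BIGH3 effect in differentiated cells minus that in undifferentiated cells on the log2 scale, and each gene appears here because the 2 effects differed. The effect was higher in differentiated cells for Lcn2 (7.764), Ccrl2 (2.336), Ggt7 (1.45), Angpt4 (1.045), Frrs1 (0.6451), Angpt1 (0.6121), Tgm2 (0.5641), Ccl25 (0.5485) and Glrx (0.3506). It was lower in differentiated cells for Tgm5 (-3.238), Megf9 (-0.7596), Colec10 (-0.7323), Txndc5 (-0.5917), Gsto1 (-0.5683), Angptl2 (-0.4586), Clec11a (-0.2991) and Anpep (-0.2893). Tgm5 and Ccrl2 averaged under 1 CPM in every group. For the 10 members this difference contains the values that chose them and was not tested.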

How the results depend on the processing

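No member was called in undifferentiated BIGH3 against undifferentiated control under any alternative run. The count of all genes called in undifferentiated BIGH3 against undifferentiated control was 3, and became 8 with DESeq2, 21 without the filter, 1 in TPM, 1 with effective length offsets, 0 with the compared groups only, 5 without the 4 libraries richest in liver transcripts and 0 to 3 when each library was left out in turn. The cause was not tested. On the log2(TPM + 1) scale, where 1 is added to low values, member log2 values on differentiation were nearer 0, except that of Apod in BIGH3 cells (-0.87 against -0.71). In BIGH3 cells they became 3.93 for Agr2, 3.56 for F13a1, 3.04 for Dpep1, 3.79 for Ackr4 and 3.67 for Clec3b, against 7.32, 5.70, 4.98, 4.55 and 4.30 on counts. The relatives that turned direction on differentiation of control cells were Pdia3 (-0.0925), Txndc5 (-0.218), Lap3 (-0.130), Megf9 (-0.232) and Gsto1 (-0.0830). In BIGH3 cells they were Pdia3 (-0.0400), P4hb (-0.000536), Angptl2 (-0.205) and Ggt7 (-0.202), and Ggt7 also turned with effective length offsets (-0.0207). A turn was counted where the gene was called in either setting. With the replicate block 8442 genes were called in differentiated against undifferentiated control cells, 6639 in differentiated BIGH3 against differentiated control, 3 in undifferentiated BIGH3 against undifferentiated control and 8299 in differentiated against undifferentiated BIGH3 cells, against 8491, 6687, 3 and 8329 without it. The deviations of same-numbered libraries correlated at -0.204 to 0.315, over 0.1 in 4 of 18 pairs. The highest value was that of undifferentiated control 2 with differentiated control 2, both among the 4 libraries richest in liver transcripts. With 3 libraries a group, these correlations cannot settle whether the numbers pair the libraries. Depth limits Agr2 and Angptl1 most in undifferentiated cells, at 2 or 3 reads a group.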
